A study of Mus musculus with 5 samples.

Results

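The 99 genes described here encode receptors for glutamate, GABA, glycine, acetylcholine and the monoamines. They were chosen by gene name, as the members of the GABA-A, GABA-B, AMPA, kainate, NMDA, metabotropic glutamate, glycine, nicotinic, muscarinic, serotonin, dopamine and adrenergic receptor families, from 46078 genes in the deposited tables. The rule used no measured value, though earlier results of these data were known when the genes were chosen. Ionotropic receptors are channels that open when the transmitter binds, and they are assembled from several subunits, so that the subunits expressed together decide which channels a cell can build. Metabotropic receptors are single proteins or dimers that signal through G proteins. In the adult subventricular zone, the stem cell region beside the lateral ventricles, GABA, glutamate and monoamines released by neighbouring cells and incoming axons are known to influence proliferation and differentiation of precursors, which carry receptors before they become neurons.

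RNA-seq was done on neural precursor cells of C57BL/6 mice with no mutation, labelled as female and 5-8 weeks old (the study's methods give an older age), that were isolated from the subventricular zone, expanded as spheres with EGF and FGF2 and plated on poly-D-lysine. All cells received PBS as a sham exposure, and RNA was taken after 1 h (2 libraries, replicates 1 and 2) or 8 h (3 libraries, replicates 13, 14 and 15). The study's methods count 1 animal as 1 biological replicate, but the labels do not tie a library to an animal, so p-values measure the spread between these libraries. The cultures were mixed and grown in mitogens, and they stand for cultured precursors, not for cells in the tissue.

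Levels are TPM, a gene's share of all transcripts corrected for length and scaled to the same total in each library. Coverage per unit of TPM ranged from 1.80 to 2.38 between the libraries. The labels carry identifiers in 2 number series. Series 1 holds 1 h replicates 1 and 2 and 8 h replicate 14, and series 2 holds 8 h replicates 13 and 15. The series stood apart in 2 ways that touch every result below. Mitochondrially encoded genes took 10.7% to 11.1% of the TPM in series 1 and 6.23% and 6.30% in series 2. All libraries are labelled female, yet in series 1 the X-inactivation transcript Xist was at 0.0285 to 0.0611 TPM and 4 Y-linked genes summed to 137.6 to 180.9 TPM, against 165.3 and 199.7 TPM of Xist and 0.0253 and 0 TPM of Y-linked genes in series 2. The 3 libraries of series 1 therefore go against their sex label. Series, sex-linked expression and mitochondrial share cannot be told apart, and because series 2 has no 1 h library, the fold changes of 8 h against 1 h printed for receptor genes in the TPM tables are also given within series 1. For time, the count table, the counts of non-overlapping genes and the pathway lists were not compared within series 1 alone. Precursor markers were high in every library (Nes 690.1 to 784.4 TPM, Sox2 181.0 to 227.7 TPM). Of 5 microglia markers, Aif1 and Tmem119 were listed at 0 throughout and the list summed to 0.462 to 1.47 TPM, most of it P2ry12. Of 5 endothelial markers, Cdh5 and Cldn5 were listed at 0, Flt1 was at 9.71 to 13.6 TPM and Kdr at 1.07 to 1.97 TPM, and the list summed to 11.8 to 15.4 TPM.

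Of the 99 receptor genes, 36 had a mean of at least 1 TPM, 15 of at least 10 TPM and 9 of at least 20 TPM. Another 38 lay between 0 and 1 TPM, and 25 were listed at 0 in all 5 libraries. Among all genes of the tables, 30.1% reached a mean of 1 TPM, against 36.4% of the receptor genes, and 48.8% were listed at 0, against 25.3%. In single libraries 34 to 36 receptor genes reached 1 TPM. All receptor genes together summed to between 683.6 and 766.0 TPM per library, and the 5 highest genes, Gabbr1, Grm5, Gria2, Grik5 and Gria3, made up 58.6% of it. The transcripts were thus mainly those of glutamate and GABA receptors, and receptor proteins were not measured in these files. Channel subunits reached 1 TPM in 24 of 58 genes, and G protein-coupled receptors in 12 of 41.

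**Figure D1:**
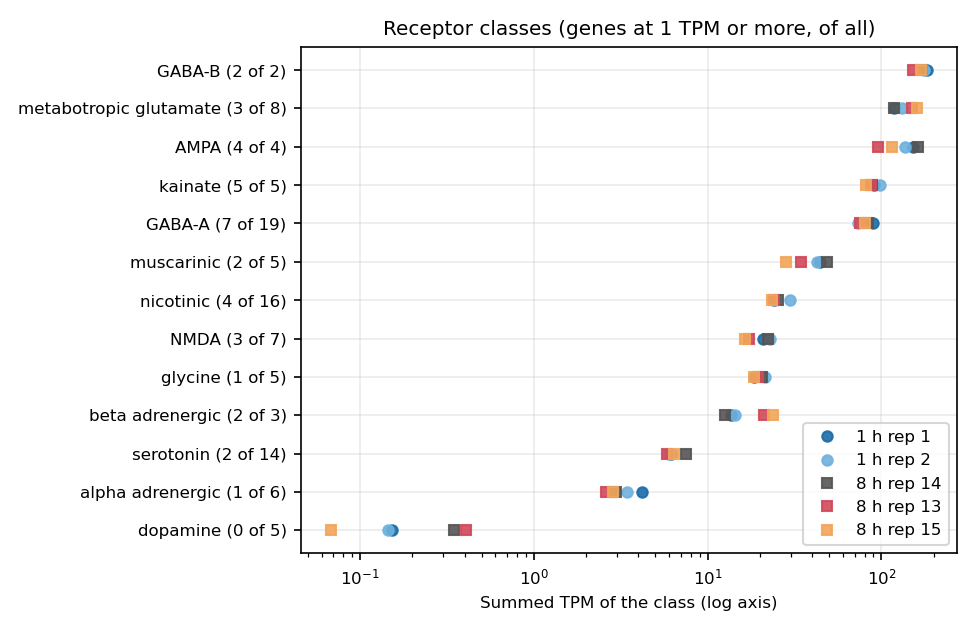
Summed TPM of each receptor class on a log axis, 1 point per library, with circles for 1 h and squares for 8 h. GABA-B, metabotropic glutamate and AMPA receptor genes led, with means of 169.8, 135.4 and 132.4 TPM, and dopamine receptor genes were lowest, with a mean of 0.224 TPM.

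The start regions of 8 genes are shown to set promoters of well expressed, intermediate and unlisted receptor genes side by side. Each is the RefSeq promoter of GRCm38.p6 from 250 bases before to 50 bases after the start, 300 bases in all, 5′ to 3′ on the strand of the gene, with each CpG in capitals. CpG-rich starts are typical of genes used in many tissues, and CpG-poor starts of genes used in few. The first set holds Gabbr1 and Gria2, the highest GABA-B and AMPA receptor genes, with 18 and 26 CpG, and Gabrg1, a GABA-A gamma subunit of 25.4 TPM with only 3 CpG.

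Gabbr1 promoter, chr17:37045716-37046015, plus strand: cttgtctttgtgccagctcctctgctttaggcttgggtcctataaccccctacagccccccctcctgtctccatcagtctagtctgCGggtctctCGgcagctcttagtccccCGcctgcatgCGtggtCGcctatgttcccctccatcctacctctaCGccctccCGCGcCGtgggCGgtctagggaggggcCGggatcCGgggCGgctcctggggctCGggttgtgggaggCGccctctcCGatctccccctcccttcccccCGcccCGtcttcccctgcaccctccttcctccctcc
Gria2 promoter, chr3:80802786-80803085, minus strand: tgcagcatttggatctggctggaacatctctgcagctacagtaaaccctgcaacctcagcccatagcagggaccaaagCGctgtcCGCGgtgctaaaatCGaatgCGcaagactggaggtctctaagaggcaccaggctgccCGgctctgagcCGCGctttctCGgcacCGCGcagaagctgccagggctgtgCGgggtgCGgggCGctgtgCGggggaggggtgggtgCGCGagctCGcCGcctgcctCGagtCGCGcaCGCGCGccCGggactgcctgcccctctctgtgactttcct
Gabrg1 promoter, chr5:70842568-70842867, minus strand: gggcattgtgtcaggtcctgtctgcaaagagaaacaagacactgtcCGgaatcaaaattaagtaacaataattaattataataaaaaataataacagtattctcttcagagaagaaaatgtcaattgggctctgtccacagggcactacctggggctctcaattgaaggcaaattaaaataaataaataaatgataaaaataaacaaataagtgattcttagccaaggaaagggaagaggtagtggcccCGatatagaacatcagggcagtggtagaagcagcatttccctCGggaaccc

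The second set holds Gabrg3 and Htr1b, which had 13 and 11 CpG and are the 2 receptor genes called lower in series 2, past both the p and the fold threshold.

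Gabrg3 promoter, chr7:57387166-57387465, minus strand: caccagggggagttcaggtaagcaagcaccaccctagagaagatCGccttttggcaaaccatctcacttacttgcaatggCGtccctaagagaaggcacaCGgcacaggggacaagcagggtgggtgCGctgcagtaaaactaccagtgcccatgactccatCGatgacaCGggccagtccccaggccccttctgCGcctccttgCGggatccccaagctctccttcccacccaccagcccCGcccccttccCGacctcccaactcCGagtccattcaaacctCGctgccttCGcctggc
Htr1b promoter, chr9:81633783-81634082, minus strand: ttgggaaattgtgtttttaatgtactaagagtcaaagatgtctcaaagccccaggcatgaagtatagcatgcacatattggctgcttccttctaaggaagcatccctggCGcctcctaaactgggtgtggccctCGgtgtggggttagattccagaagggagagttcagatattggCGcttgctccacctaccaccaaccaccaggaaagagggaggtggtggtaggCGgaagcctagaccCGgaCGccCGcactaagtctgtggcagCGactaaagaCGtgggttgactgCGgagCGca

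The third set holds Gabra6 and Htr3b, which were listed at 0 and had 2 CpG each, and Drd5, which was also listed at 0 and had 38 CpG.

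Gabra6 promoter, chr11:42321023-42321322, minus strand: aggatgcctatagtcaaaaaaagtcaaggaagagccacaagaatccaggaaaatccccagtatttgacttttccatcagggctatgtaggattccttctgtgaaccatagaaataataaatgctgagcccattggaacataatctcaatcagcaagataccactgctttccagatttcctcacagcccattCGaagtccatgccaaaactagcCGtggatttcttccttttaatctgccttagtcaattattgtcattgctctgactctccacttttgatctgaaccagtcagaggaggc
Htr3b promoter, chr9:48964941-48965240, minus strand: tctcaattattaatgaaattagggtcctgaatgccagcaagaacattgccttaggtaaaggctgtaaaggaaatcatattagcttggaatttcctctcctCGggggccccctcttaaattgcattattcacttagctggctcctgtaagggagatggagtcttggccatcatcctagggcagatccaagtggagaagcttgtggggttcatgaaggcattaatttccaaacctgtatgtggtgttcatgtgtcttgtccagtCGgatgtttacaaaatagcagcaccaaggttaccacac
Drd5 promoter, chr5:38319259-38319558, plus strand: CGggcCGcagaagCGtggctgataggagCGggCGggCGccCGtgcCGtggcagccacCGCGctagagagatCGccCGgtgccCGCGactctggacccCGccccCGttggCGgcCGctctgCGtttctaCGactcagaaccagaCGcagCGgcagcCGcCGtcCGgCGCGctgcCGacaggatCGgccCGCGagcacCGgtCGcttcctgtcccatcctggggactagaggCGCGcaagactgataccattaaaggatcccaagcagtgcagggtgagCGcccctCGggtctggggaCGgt

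A promoter was found for 73 of the 99 receptor genes. In 5 of them the RefSeq start lay over 1000 bases from the gene end in the deposited tables, and Grm5 and Gria1 were among the 9 genes of at least 1 TPM without one. The median was 17 CpG per promoter (range 0 to 50, n = 27) for receptor genes of at least 1 TPM, 15.5 (2 to 46, n = 28) for those below 1 TPM and 4 (1 to 38, n = 18) for those listed at 0. The median over 27025 genes of the RefSeq table was 7. There the first start listed was taken for each gene, whereas receptor genes had the start nearest their 5′ end in the deposited tables. At least 15 CpG were found in 55.6%, 57.1% and 5.56% of the promoters of the 3 sets, and in 35.2% of those of all genes. Drd5 was the only receptor gene listed at 0 that passed 15. Low levels were therefore found at both kinds of start, whereas a listing at 0 was found mostly at CpG-poor starts. Gabrg1 with 3 CpG and Gabra3 with 0 CpG had 25.4 and 1.02 TPM. These are counts of letters in 1 window per gene and carry no test.

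**Figure D2:**
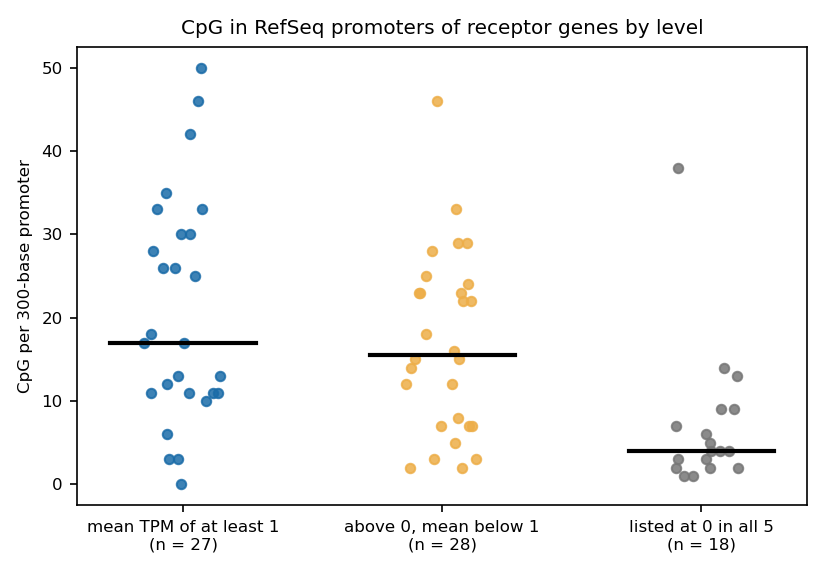
CpG count in the 300-base RefSeq promoter of 73 receptor genes, 1 point per gene, in 3 sets by level, with the median as a bar. The medians were 17, 15.5 and 4, and the single high point among the genes listed at 0 is Drd5 with 38.

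GABA-B receptors were the class with the highest transcript level, and nearly all of it came from 1 subunit. The receptor is a dimer in which the Gabbr1 product binds GABA and the Gabbr2 product couples to the G protein. Gabbr1 (ENSMUSG00000024462, GRCm38 chr17:37045966-37075067, plus strand) was at 181.1 and 174.3 TPM in 1 h replicates 1 and 2 and at 149.4, 166.2 and 167.5 TPM in 8 h replicates 13, 14 and 15. It was the highest of the 99 genes in every library and lay at the 93.1th percentile of the 13870 genes with a mean of at least 1 TPM. All 8 h libraries lay below both 1 h libraries, within a narrow range (coefficient of variation 7.07%). Gabbr2, its partner (chr4:46662318-46991873, minus strand), was at 2.24 and 2.41 TPM at 1 h and at 2.03, 2.31 and 1.75 TPM at 8 h. The level of Gabbr1 was 72.1 to 96.0 times that of Gabbr2 in the same library. The subunit that binds GABA was therefore abundant while the one that the dimer needs for signalling was near the lower limit of the tested genes, at their 9.69th percentile.

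GABA-A receptors, chloride channels made of 5 subunits, had 19 genes, of which 7 had a mean of at least 1 TPM and 5 were listed at 0. Channels usually hold alpha, beta and gamma subunits, with the GABA site between alpha and beta. Gabrg1 (chr5:70751047-70842617, minus strand) was at 31.5 and 21.5 TPM at 1 h and at 25.7, 24.2 and 24.2 TPM at 8 h. It was the highest gamma subunit gene in all 5 libraries. Another gamma subunit, Gabrg3 (chr7:56716465-57387188, minus strand), was at 11.4 and 8.05 TPM at 1 h and at 2.70, 8.27 and 3.57 TPM at 8 h, so that its low values were those of series 2. Mean coverage over the 5 libraries was only 0.683 for Gabrg3, against 36.0 for Gabrg1. The level of Gabrg3 is therefore uncertain.

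Alpha subunits were low. Gabra2 was at 3.30 and 1.45 TPM at 1 h and at 1.21, 4.63 and 1.44 TPM in 8 h replicates 13, 14 and 15, Gabra5 had a mean of 1.50 TPM (0.801 to 2.49) and Gabra3 of 1.02 TPM (0.565 to 1.40). The 6 alpha genes together summed to 4.15 to 8.32 TPM per library, against 28.5 to 43.1 TPM for the 3 gamma genes, and these ranges do not overlap. Gabrb2 had a mean of 1.12 TPM (0.830 to 1.49). Below 1 TPM were 7 GABA-A genes, with Gabra4 highest at 0.944 TPM, and Gabra6, Gabrd, Gabrp, Gabrr1 and Gabrr3 were listed at 0.

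Many GABA-A genes stand in clusters, and neighbours differed in level. On chromosome 5, within chr5:70751047-72149037, Gabrg1 had a mean of 25.4 TPM, Gabra2 of 2.41 TPM, Gabra4 of 0.944 TPM and Gabrb1 of 0.119 TPM. On chromosome X, within chrX:72255999-72842602, Gabra3 had 1.02 TPM while Gabre and Gabrq had 0.0997 and 0.198 TPM. In the cluster of chromosome 5, Gabrg1 stood far above its neighbours, and in that of chromosome X no gene passed 1.40 TPM.

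Of the glycine receptor genes, Glrb alone reached 1 TPM. Its product binds the scaffold gephyrin and forms a working channel only with an alpha subunit. Glrb was at 18.5 and 21.3 TPM at 1 h and at 19.4, 20.5 and 18.5 TPM at 8 h, the lowest spread of the 36 genes (coefficient of variation 6.33%). Glra1, Glra2 and Glra4 were listed at 0, and Glra3 was above 0 in 8 h replicate 15 only, at 0.0567 TPM. The beta subunit was thus present with no alpha partner above that level.

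AMPA receptors, the channels of fast glutamate transmission, had all 4 genes above 1 TPM. Gria2, whose edited product makes the channel impermeable to calcium (chr3:80681450-80802835, minus strand), was at 89.7 and 78.5 TPM at 1 h and at 49.9, 99.3 and 51.9 TPM in 8 h replicates 13, 14 and 15. Gria3 was at 52.5 and 47.6 TPM at 1 h and at 24.9, 53.0 and 39.9 TPM at 8 h, and Gria4 at 7.44 and 9.01 TPM and at 5.86, 8.25 and 6.38 TPM. In these 3 genes, the pair of series 2 libraries was below the 3 of series 1. Gria1 (chr11:57011387-57330244, plus strand) went the other way, with 2.58 and 2.33 TPM at 1 h and 14.5, 1.43 and 17.1 TPM at 8 h. It made up 0.881% to 1.70% of the AMPA receptor level in series 1 and 15.3% and 14.9% in 8 h replicates 13 and 15. The level of Gria2 was 33.7 to 69.6 times that of Gria1 in series 1, and 3.43 and 3.03 times in series 2. Small RNA genes lie on the same strand within Gria2, Gria3, Gria4, Grik4 and Grm8, over less than 1% of the exon bases of each, so reads there are uncertain. Gria2 was the highest AMPA receptor gene in all 5 libraries, at 45.0% to 61.3% of the class.

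**Figure D3:**
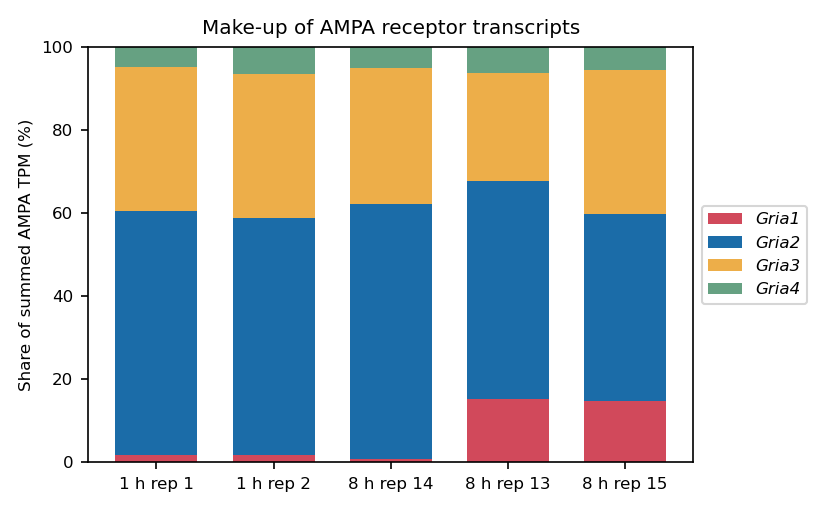
Share of each AMPA receptor gene in the summed AMPA TPM, 1 bar per library, with the 3 libraries of series 1 on the left and those of series 2 on the right. Gria1 had at most 1.70% in the former and at least 14.9% in the latter.

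Kainate receptors had all 5 genes above 1 TPM and summed to 81.2 to 98.6 TPM per library. Grik5, which raises the affinity of the channel for glutamate and needs a partner from Grik1, Grik2 or Grik3, was at 48.7 and 56.6 TPM at 1 h and at 54.9, 45.4 and 44.8 TPM at 8 h. Among its possible partners, Grik3 was at 20.9 and 22.8 TPM at 1 h and at 13.7, 19.8 and 16.1 TPM at 8 h, and Grik2 at 12.4 and 11.3 TPM and at 11.5, 14.2 and 13.0 TPM. Mean coverage was 52.1 for Grik3 and only 2.99 for Grik2, so the level of Grik2 is less certain. Both classes of kainate subunit, those that form channels alone and those that do not, were therefore present at 10 TPM or more. Grik4, which resembles Grik5, had a mean of 6.34 TPM (5.39 to 7.49) and Grik1 of 1.47 TPM (1.08 to 1.81).

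NMDA receptors need Grin1, the subunit that binds glycine, together with Grin2 subunits, which bind glutamate, or Grin3 subunits, which bind glycine. Grin1 was at 3.44 and 4.53 TPM at 1 h and at 4.37, 4.12 and 4.04 TPM at 8 h. The highest NMDA receptor gene was not Grin1 but Grin3a (chr4:49661611-49845744, minus strand), at 15.0 and 15.7 TPM at 1 h and at 9.85, 15.6 and 9.56 TPM in 8 h replicates 13, 14 and 15. Its level was 2.25 to 4.36 times that of Grin1 and made up 57.1% to 72.3% of the class. Of the subunits that bind glutamate, Grin2a had a mean of 1.20 TPM (0.872 to 1.42), Grin2c of 0.960 TPM, Grin2b of 0.295 TPM and Grin2d of 0.154 TPM. Glutamate-binding NMDA subunits were thus lower than Grin1, and Grin3b was at most 0.0541 TPM.

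Metabotropic glutamate receptors were led by Grm5 of group I, which acts through Gq and calcium release (chr7:87602544-88134907, plus strand). Grm5 was at 83.8 and 94.4 TPM at 1 h and at 109.6, 87.8 and 112.7 TPM in 8 h replicates 13, 14 and 15. Grm3 of group II, which lowers cyclic AMP and is known from astrocytes, was at 32.2 and 33.3 TPM at 1 h and at 36.2, 28.4 and 43.6 TPM at 8 h. Grm4 of group III had a mean of 2.71 TPM (2.11 to 3.27). In Grm5, Grm3 and Grm4 alike, 8 h replicates 13 and 15 held higher values than the 3 libraries of series 1. The other receptors were near absent from the tables, with Grm7 highest at 0.108 TPM on average and Grm6 listed at 0. Each of the 3 groups was therefore represented by 1 gene.

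Acetylcholine receptor genes were led by Chrm3, a muscarinic receptor coupled to Gq, at 40.8 and 40.2 TPM at 1 h and at 33.0, 45.7 and 26.2 TPM in 8 h replicates 13, 14 and 15. It made up 93.8% of the muscarinic level, and Chrm4 had a mean of 1.11 TPM (0.485 to 1.85), with Chrm1 next at 0.998 TPM. Among the 16 nicotinic subunit genes, 4 reached 1 TPM. Chrna4 was at 18.3 and 24.5 TPM at 1 h and at 18.0, 20.2 and 15.2 TPM at 8 h, while Chrnb2, its usual partner in brain, had a mean of 1.34 TPM (1.22 to 1.51). Chrna4 was 11.0 to 18.2 times as high as Chrnb2, 16.3% of whose exon bases lie opposite Adar, a gene of 28.6 TPM on the other strand. Chrna7, which can form a channel alone, had a mean of 2.44 TPM (2.09 to 3.20) and Chrnb1, a subunit of the muscle type, of 1.98 TPM (1.31 to 2.87). Of the others, Chrna5 was highest at 0.312 TPM, and Chrna2, Chrna6, Chrna9, Chrna10, Chrnb3, Chrnd and Chrne were listed at 0. In both families a single gene held most of the level.

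Monoamine receptors other than Adrb1 were low. Adrb1, the beta receptor coupled to Gs (chr19:56722372-56724862, plus strand), was at 11.95 and 12.8 TPM at 1 h and at 19.6, 11.4 and 22.5 TPM in 8 h replicates 13, 14 and 15. Adrb3 had a mean of 0.155 TPM. Of the 6 alpha adrenergic receptor genes, Adra1b alone reached 1 TPM, with a mean of 1.34 TPM (0.835 to 2.09), and Adra1d was next at 0.717 TPM. The adrenergic signal thus rested mainly on 1 beta receptor gene.

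Serotonin receptor genes reached 1 TPM in 2 of 14 cases and summed to 5.81 to 7.48 TPM per library. Htr1b, which lowers cyclic AMP through Gi (chr9:81628291-81633828, minus strand), was at 2.92 and 3.18 TPM at 1 h and at 1.72, 4.12 and 1.30 TPM in 8 h replicates 13, 14 and 15. Htr2a, coupled to Gq, had a mean of 2.03 TPM (1.61 to 2.41). Htr3a, the subunit that every serotonin-gated channel needs, was at 0.591 to 1.60 TPM, and Htr3b, its partner, was listed at 0, as were Htr1a, Htr1f, Htr2b, Htr2c, Htr4 and Htr5a. No dopamine receptor gene reached 1 TPM. Drd1 was highest with a mean of 0.109 TPM, Drd2 and Drd4 had 0.102 and 0.0126 TPM, and Drd3 and Drd5 were listed at 0. The 5 dopamine receptor genes together summed to 0.0681 to 0.408 TPM, which is less than Htr1b alone in each library.

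**Figure D4:**
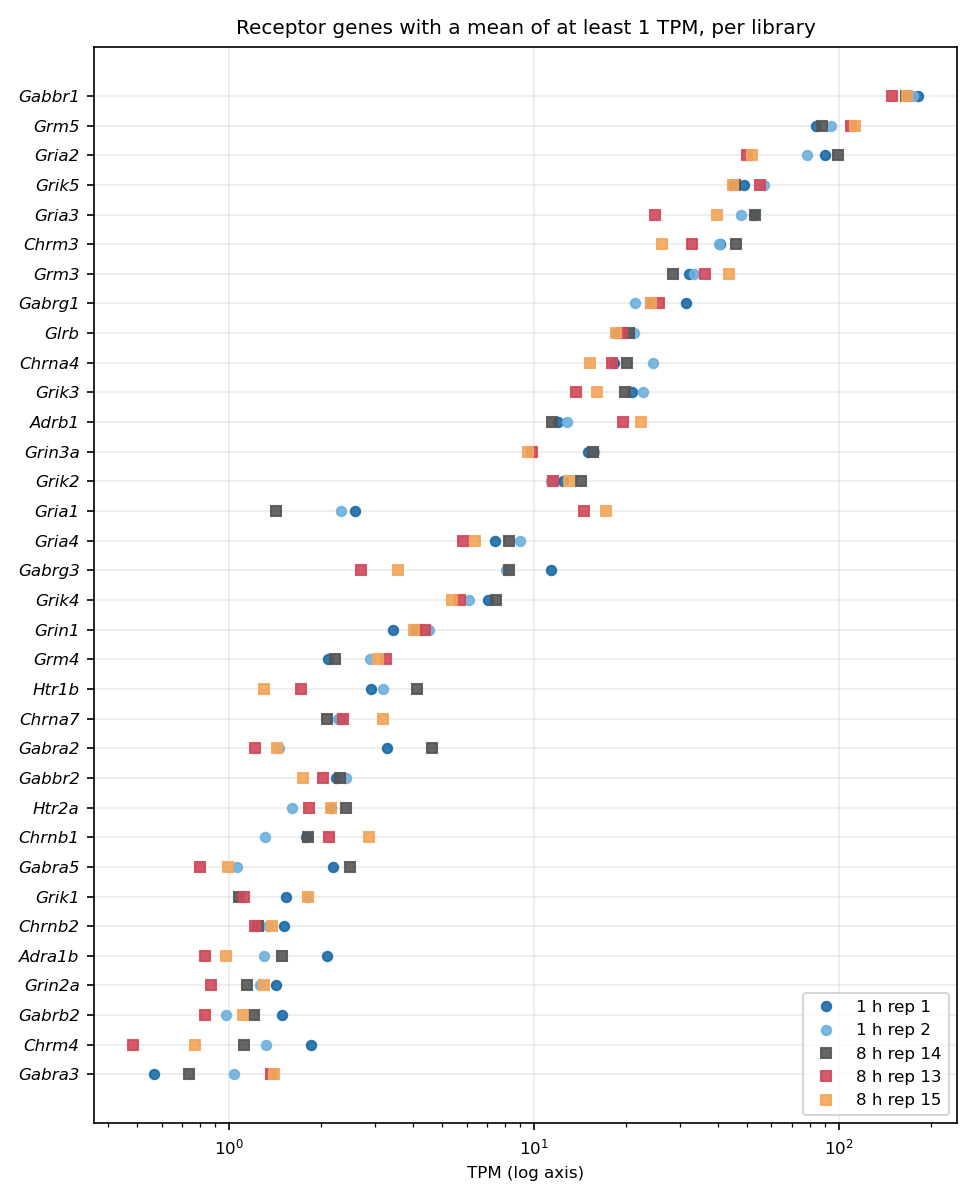
TPM on a log axis for 34 of the 36 receptor genes with a mean of at least 1 TPM, 1 point per library, ordered by mean, with circles for 1 h and squares for 8 h. For Gria1 the squares of 8 h replicates 13 and 15 lie at 14.5 and 17.1 TPM and the other 3 points at 1.43 to 2.58 TPM.

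Neighbours in the order of the levels were separated in some places and overlapped in others. Further down, Gabrg1 at 21.5 to 31.5 TPM did not overlap Glrb at 18.5 to 21.3 TPM. Gabbr1 at 149.4 to 181.1 TPM did not overlap Grm5 at 83.8 to 112.7 TPM, whereas Grm5 and Gria2, with 49.9 to 99.3 TPM, overlapped, and so did Grik5 and Gria3. Of the 36 genes, 26 differed by less than 2 times between their highest and lowest library. The median coefficient of variation over the 5 libraries was 18.5%, against 15.4% for all genes of at least 1 TPM. The exceptions with the highest spread were Gria1 (99.8%), Gabra2 (62.3%), Gabrg3 (52.9%) and Gabra5 (51.3%). In bulk RNA, fewer cells that express a gene and less RNA per cell cannot be told apart.

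The comparison of 8 h with 1 h asked whether receptor genes changed with time after the sham exposure. None of the 36 receptor genes tested was called (limma on log2(TPM + 1); a call needed an adjusted p no higher than 0.05 with a log2 fold change beyond 1 in either direction), and 0.0433% of all genes tested were called, or 6 of 13870. With an unadjusted p under 0.05 there were 0 receptor genes and 1712 of all genes, and the lowest adjusted p of a receptor gene was 0.404. The median fold change was -0.12 on the log2 scale for the receptor genes and 0.10 for all genes, with 12 of the receptor genes above and 24 below 0. Among counts, the quasi-likelihood test of edgeR called 0 of 23 receptor genes and 0.0% of all 7590 genes, DESeq2 called 0 as well, and an unadjusted p under 0.05 was found for 0 receptor genes and 199 genes in all with edgeR and for 0 and 227 with DESeq2. None of the 8 h count columns matched the TPM table of its own name best, and that named 8 h replicate 14 matched no table closely. It is therefore uncertain which libraries the 8 h columns hold. No receptor gene was called for time in either comparison.

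For Gabbr1 the estimate was -0.14 ± 0.10 (SE) on the log2 scale (limma adjusted p = 0.509), with a 95% interval from -0.38 to 0.09. For Grm5 it was 0.21 ± 0.14 (limma adjusted p = 0.512), with an interval from -0.14 to 0.55. Both intervals lie within 1 of 0 on the log2 scale. For Gria1 it was 1.35 ± 0.86 (limma adjusted p = 0.495), with an interval from -0.77 to 3.47, and for Gabrg3 -0.97 ± 0.41 (limma adjusted p = 0.404), with an interval from -1.97 to 0.03. In both genes 8 h replicate 14 lay with the 1 h libraries, apart from the other 8 h libraries. Within series 1, where 8 h replicate 14 is compared with both 1 h libraries and is assumed to vary like them, the estimate for Gria1 was -0.51 (limma adjusted p = 0.673), for Gabrg3 -0.19 (limma adjusted p = 0.852), for Gabbr1 -0.095 (limma adjusted p = 0.839) and for Grm5 -0.017 (limma adjusted p = 0.980). No receptor gene was called there, against 0.0509% of all genes. Without 8 h replicate 14, Gria1 and Gabrg3 were called, 2 of 37 receptor genes against 4.12% of all genes, which is near the background, and time and series then divide the libraries alike and cannot be told apart.

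Genes whose 1 h and 8 h libraries did not overlap were also counted, without a model. Higher in each 8 h library than at 1 h were 2 of 36, Chrnb1 among them, against 23.7% of all genes. Lower in all of them were 4 of 36 or 11.1%, Gabbr1, Grik3 and Chrm4 among them, against 9.43% of all genes. Both shares are near or below the background, so they are no result about the receptor genes.

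The comparison of series 2 with series 1 asked which receptor genes followed the identifier series, and it used limma with time as a term, so that its estimates set 8 h replicates 13 and 15 against the single library 8 h replicate 14, whose spread is taken from the other groups. Estimates without the time term, which compare the 2 libraries of series 2 with the 3 of series 1, are given beside them. Called higher in series 2 was 1 of 36 receptor genes, or 2.78%, against 3.33% of all genes tested. Called lower were 2 of 36, or 5.56%, against 0.692%. With an adjusted p no higher than 0.05 at any fold change, 2 were higher against 7.44% of all genes, and 4 lower, or 11.1%, against 1.65%. The median difference was -0.14 on the log2 scale for the receptor genes and 0.11 for all genes. Across all genes 462 were called higher and 96 lower (312 and 119 after median-ratio scaling). The receptor gene counts are 1 and 2, and their difference from the background was not tested.

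Gria1 differed most. It had a mean of 2.11 ± 0.607 TPM (SD, n = 3) in series 1 and 15.8 ± 1.83 TPM (SD, n = 2) in series 2, and the series did not overlap. Against 8 h replicate 14 the difference was 2.79 ± 0.18 (SE) on the log2 scale (limma adjusted p = 0.00462), with a 95% interval of 2.34 to 3.24. Without the time term it was 2.45 (limma adjusted p = 0.000951). In the count table Gria1 was at 5.71 to 18.3 CPM (counts scaled to the column total) in 4 columns and at 52.2 CPM in that named 8 h replicate 15. That column matched the TPM table of 8 h replicate 13 for 77.1% of 7471 genes within 0.1 on the log2 scale and its own for 41.7%, so counts and TPM of the 8 h libraries cannot be set side by side by name.

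Called lower in series 2 were Gabrg3 and Htr1b, whose promoters are printed above. Gabrg3, a gene of thin coverage (0.683 on average), had a mean of 9.23 ± 1.84 TPM (SD, n = 3) in series 1 and of 3.13 ± 0.610 TPM (SD, n = 2) in series 2. The difference from 8 h replicate 14 was -1.17 ± 0.25 (SE) on the log2 scale (limma adjusted p = 0.0440), and without the time term it was -1.30 (limma adjusted p = 0.00598). Htr1b had 3.41 ± 0.627 TPM (SD, n = 3) and 1.51 ± 0.296 TPM (SD, n = 2). Its difference from 8 h replicate 14 was -1.03 ± 0.21 (limma adjusted p = 0.0421), and without the time term it was -0.81 (limma adjusted p = 0.0273), short of the fold threshold. Neither gene overlapped between the series, and both lost their call when 8 h replicate 13 or 15 was left out (limma adjusted p from 0.10 to 0.145). An antisense gene, D430036J16Rik, covers 18.0% of the exon bases of Htr1b and was at 1.32 TPM.

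With a smaller fold change, Gria2 was lower in series 2, with a difference of -0.95 ± 0.12 (SE) on the log2 scale (limma adjusted p = 0.0133), and Grin3a with one of -0.64 ± 0.13 (limma adjusted p = 0.0429). Without the time term these were -0.79 and -0.62. Adrb1 was higher, with a difference of 0.82 ± 0.15 (limma adjusted p = 0.0293, or 0.0512 after median-ratio scaling), and one of 0.75 without the time term. Gabra2 had a difference of -1.28 ± 0.36 and did not pass (limma adjusted p = 0.0846), nor did it without the time term, at -0.75 (limma adjusted p = 0.162). Among the AMPA receptor genes, the one with the lowest level in series 1 was higher in series 2 and the one with the highest level was lower, and the class as a whole summed to 105.3 ± 14.2 TPM in series 2 (SD, n = 2) and 150.5 ± 12.3 TPM in series 1 (SD, n = 3). The beta adrenergic class summed to 22.5 ± 1.84 TPM (SD, n = 2) and 13.6 ± 0.910 TPM (SD, n = 3).

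**Figure D5:**
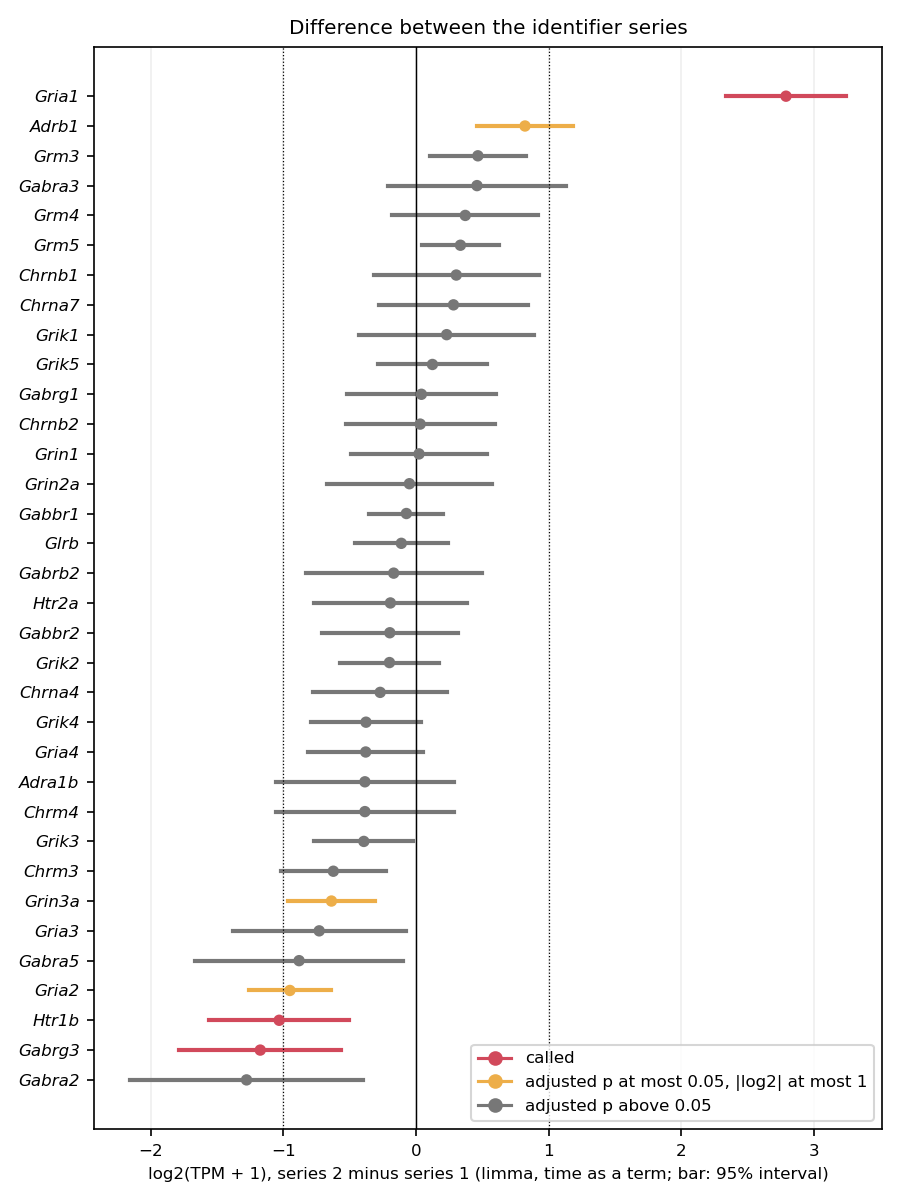
Difference between series 2 and series 1 on the log2(TPM + 1) scale for 34 of the 36 receptor genes tested, with the limma estimate (time as a term, so against 8 h replicate 14) as a point and its 95% interval as a bar; dotted lines mark an absolute difference of 1. Gria1 at 2.79 stands alone on the right, and Gabra2, Gabrg3, Htr1b and Gria2 lie lowest.

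Counted without a model, 8 of 36 receptor genes were higher in both series 2 libraries than in all of series 1, against 39.8% of all genes, and 15 of 36, or 41.7%, were lower, against 13.5%. The lower ones were Gria2, Gria3, Gria4, Chrm3, Chrna4, Grik3, Grik4, Grin3a, Gabrg3, Htr1b, Gabra2, Gabbr2, Gabra5, Adra1b and Chrm4. The higher ones were Grm5, Grm3, Grm4, Adrb1, Gria1, Chrna7, Chrnb1 and Gabra3. After median-ratio scaling, tried after seeing the data, 5 were higher against 24.4% of all genes and 17 lower against 24.9%, with Grm3, Grm4 and Chrna7 then overlapping and Gabbr1 and Glrb joining the lower ones. Under both scalings Gria2, Gria3 and Gria4 were on the lower side and Gria1 and Grm5 on the higher. Among the receptor genes below 1 TPM, 14 were higher and 2 lower in series 2 without overlap. The shares over all genes below 1 TPM were not computed, so these numbers are no result about the receptor genes. At such levels few reads stand behind a value. The lowest, Gabrb1, had 2 counts in 1 h replicate 1 at 0.0146 TPM.

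Some cell type markers moved with the series too. Over all genes tested, 3.33% were called higher in series 2 and 0.692% lower, and the marker lists were not tested against these shares. Of 6 astrocyte markers, 3 were called higher in series 2 (Gfap, Aqp4 and Slc1a2), and the markers summed to 622.8 to 782.1 TPM in series 1 and to 1046.5 and 1070.8 TPM in series 2. Of the neuron markers, Map2 and Syt1 were called lower among 6 tested. Tubb3 was at -0.93 on the log2 scale, while Dcx, Snap25 and Rbfox3 were at 0.47, 0.38 and 0.018, none of them called. The neuron list summed to 278.5 to 467.7 TPM in series 1 and to 216.3 and 242.7 TPM in series 2. Most of that was Map2. It was at 216.8 and 210.2 TPM at 1 h and at 173.0, 405.1 and 196.2 TPM in 8 h replicates 13, 14 and 15. Mbp of the oligodendrocyte lineage was called lower among 7 tested, and that list summed to 1639 to 2276 TPM in series 1 and to 2144 and 2462 TPM in series 2. Acta2 of the mural list was called lower among 2 tested, and the list summed to 109.5 to 153.5 TPM and to 34.3 and 36.2 TPM. No precursor marker was called among 6, and these summed to 8819 to 9382 TPM and to 10435 and 11312 TPM. The part of these cells in the difference of any receptor gene was not tested.

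Genes that make, take up or break down the transmitters, or that bind the receptors, were examined beside them from fixed lists, and for time limma called 0 of 9, 0 of 19 and 0 of 5 tested genes in the 3 lists. In the list on GABA and glycine, 9 of 13 genes had at least 1 TPM. Dbi, whose peptides bind the GABA-A receptor, had a mean of 2677 TPM, the GABA transporter Slc6a11 had 198.2 TPM, Abat, which degrades GABA, had 54.2 TPM, the glycine transporter Slc6a9 had 34.0 TPM, the scaffold Gphn 55.1 TPM and the chloride importer Slc12a2 35.9 TPM. GABA-synthesising Gad1 had 2.64 TPM. In series 2, 2 of 9 were called higher, Abat (32.2 to 47.0 TPM in series 1, 74.9 and 75.6 TPM in series 2) and Slc6a11 (119.6 to 180.0 TPM against 270.2 and 294.5 TPM), and 0 lower. Over all genes 3.33% were called higher and 0.692% lower, and the lists were not tested against these shares. Uptake and breakdown of GABA thus had far higher transcript levels than its synthesis.

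In the list on glutamate, 19 of 24 genes had at least 1 TPM. The transporters Slc1a3, Slc1a2 and Slc1a1 had 469.1, 34.0 and 15.3 TPM, and Glul, which makes glutamine from glutamate, 282.2 TPM. The AMPA receptor partners Cacng7, Cacng4, Cacng8 and Cnih2 had 68.1, 44.1, 36.7 and 25.4 TPM, and the kainate receptor partners Neto2 and Neto1 91.7 and 26.0 TPM. Cacng2, the partner best known from cerebellar synapses, was at most 0.0310 TPM. The scaffolds Dlg4, Homer3 and Homer1 had 75.0, 55.9 and 40.5 TPM, and the related receptor Grid1 12.3 TPM. In series 2, 2 of 19 were called higher, Glul (181.7 to 227.6 TPM in series 1, 399.3 and 390.0 TPM in series 2) and Slc1a2 (21.7 to 27.4 TPM against 41.0 and 53.5 TPM), and 0 lower. AMPA and kainate receptor genes were thus accompanied by transcripts of auxiliary subunits of both families.

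In the list on monoamines and acetylcholine, 5 of 18 genes had at least 1 TPM. The degrading enzyme Maoa had 68.3 TPM, and Maob was at 0.719 to 1.38 TPM in series 1 and at 2.48 and 3.07 TPM in series 2, where it was called higher as 1 of 5, with 0 lower. Th, Dbh, Tph1, Slc6a2 and Chat, which make or take up catecholamines, serotonin and acetylcholine, were listed at 0. Degradation was therefore the step of monoamine handling that these cells transcribed at 10 TPM or more.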

How the data were processed

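RNA-seq of 5 PBS-treated libraries was used, 2 at 1 h and 3 at 8 h. The authors sequenced stranded, poly-A selected libraries, aligned them to GRCm38 with STAR and counted reads with featureCounts through nf-core/rnaseq. The submitters' processing notes also name bcl2fastq 2.19.1.403, CASAVA and DESeq2. The use of strand in counting was not given in the sources used here. Deposited as a single table were whole-number counts of 7599 genes, 23 of them receptor genes, with column totals of 13988166 to 18572154. The authors deposited, per library, a gene table with TPM, FPKM and mean coverage in the layout of StringTie. Neither tool nor version was given in the sources used here. FPKM was not used. All 5 count columns were assigned by name. The column named 8 h replicate 13 matched the TPM table of 8 h replicate 14 best (78.6% of genes within 0.1 log2, its own 25.7%), and that named 8 h replicate 14 matched none closely (at most 39.7%), so TPM was the main measure.

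Genes with a mean of at least 1 TPM were tested with limma 3.58.1 (R 4.3.3) with an intensity trend on log2(TPM + 1), a scale that understates the change of low genes. Counts were tested with edgeR 4.0.16 (quasi-likelihood, TMM) and DESeq2 1.42.0, and p-values were adjusted by Benjamini-Hochberg over all genes tested. The tests were checked on simulated data with independent noise and a change by time or by series, never both. That check does not cover the tie between time and series in these libraries. Alternatives were other pseudocounts, filters, scalings and terms, series 1 or the 8 h libraries alone, and leaving out each library. Named with values were receptor genes of at least 1 TPM, those called and the obligatory subunits (Grin1, Gabbr1, Gabbr2, Glrb and Htr3a). Those listed at 0, the highest of the others per class, and pathway genes of at least 10 TPM or called were named too. Further low genes (such as Gad1 and Cacng2) were chosen after their values were seen. A few of these genes are left unnamed here, and counts, sums and medians include them. The receptor genes and lists were chosen with earlier results of these data known. Promoters are from RefSeq (GRCm38.p6). Libraries of cells exposed to hydrogen peroxide were not analysed here.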

Additional observations from a re-analysis of the deposited data

How the results depend on the processing

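The number of receptor genes of at least 1 TPM was 36 and lay between 26 and 43 with thresholds of 2 and 0.5 TPM, and between 35 and 38 with 1 library left out. For time, receptor genes called in the TPM tables stayed at 0 except without 8 h replicate 14, where they were 2 (Gria1 and Gabrg3), so leaving out 1 library gave 0 to 2. Of all genes, 6 were called for time, 2 at an adjusted p of 0.01, 19 with series as a term, 1 with a mean of at least 5 TPM, 0 without a filter and 0 to 573 with 1 library left out. The count table gave 0 calls under every alternative run, where columns were taken by name, so that settings with the series as a term or without an 8 h replicate do not hold the libraries that the TPM settings of that name hold. Within series 1 the direction for time turned in 16 of 35 receptor genes tested in both fits, and with series as a term in 17 of 36, none of them called. Of the 4 genes whose fold change is printed, it turned for Gria1, to -0.51, and for Grm5, to -0.017, under both settings. For the series, receptor genes called were 0 without a filter and 1 to 4 with 1 library left out, against 3, and all genes called were 0 without a filter and 82 to 642 with 1 library left out, against 558. Without 8 h replicate 13 or 15, Gria1 was the 1 receptor gene called. Across the alternatives Gria1 was called in 8 of 9 (2.45 to 3.38, limma adjusted p 0.000904 to 0.0749), Gabrg3 in 6 of 9, Htr1b in 5 of 9, Gabra2 in 3 of 9, Gria2 in 1 of 9 and Adrb1 and Grin3a in 0 of 9. Of these alternatives, dropping the filter, using the 8 h libraries alone or leaving out a 1 h replicate cannot move the estimate, only its p-value. They are therefore no separate check of its size. Median-ratio scaling moved the median series difference of all genes from 0.11 to -0.0087 and that of the receptor genes from -0.14 to -0.23. The series fit without 8 h replicate 14 was not run, because series and time then coincide. No paired analysis was possible because the 1 h and 8 h groups share no replicate number.

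The TPM tables hold no read counts, so no counting interval was given for the receptor genes outside the count table, and the precision of each comparison is that of 2 and 3 libraries.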
